A study of Homo sapiens with 9 samples.

Results

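The APOBEC3 genes encode the cytidine deaminases of the human antiviral defence: enzymes that turn cytosine into uracil in single-stranded DNA. All genes of the deposited table whose symbol equals APOBEC3A, APOBEC3B, APOBEC3C, APOBEC3D, APOBEC3F, APOBEC3G or APOBEC3H were taken, which gave 7 of 59609 genes, each present once. RNA was sequenced from SUIT2 cells, a long-established line from a human pancreatic cancer, in 3 groups of 3 libraries: cells given fresh medium with interferon beta (IFN-β, a type I interferon) at 100 U/mL for 6 h, cells given the same dose for 24 h, and cells labelled as control treated, for which no time is given. All groups are the same tumour line in culture, so the values describe 1 line without immune or stromal cells. The series set out to define which transcripts change after 6 or 24 h of type I interferon, and its title ties this to STING and to the PET tracer FLT. Whether the replicates came from separate cultures is not stated, and p-values therefore reflect only how these libraries spread, which may be technical.

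Type I interferon binds the receptor formed by IFNAR1 and IFNAR2, which activates the kinases JAK1 and TYK2. These phosphorylate STAT proteins, among them STAT2, and a complex with IRF9 then binds interferon-stimulated response elements in target genes. Several APOBEC3 genes are known interferon targets in blood cells. Their proteins enter retrovirus particles, deaminate the new viral DNA strand and also hinder reverse transcription. APOBEC3G and APOBEC3F are the best known restrictors of HIV that lacks the Vif protein. APOBEC3B is a nuclear member that many tumours express, and together with APOBEC3A it has been linked to clustered and genome-wide cytosine mutations in cancer.

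The family lies head to tail on the plus strand of chromosome 22 (hg38). As the table gives them, APOBEC3A spans 38952741 to 38992779, APOBEC3B 38982347 to 38992805, APOBEC3C 39014257 to 39020353 and APOBEC3D 39021113 to 39033278. APOBEC3F spans 39040604 to 39055973, APOBEC3G 39077067 to 39087744 and APOBEC3H 39097224 to 39104068. Every member has the zinc-binding deaminase motif, in which a histidine and a pair of cysteines hold the zinc ion and a glutamate takes part in catalysis. The principal GENCODE transcripts of APOBEC3B, APOBEC3D, APOBEC3F and APOBEC3G encode 2 such motifs in proteins of 382, 386, 373 and 384 residues. Those of APOBEC3A, APOBEC3C and APOBEC3H encode 1, in 199, 190 and 183 residues. The coding stretch of the motif, the last one where there are 2, is printed below for the 5 members with measurable RNA, because it shows where reads can and cannot tell the genes apart. Capitals mark the codons of the histidine, the glutamate and both cysteines.
APOBEC3B (exon 6, chr22:38991365-38991475, plus strand, GRCh38): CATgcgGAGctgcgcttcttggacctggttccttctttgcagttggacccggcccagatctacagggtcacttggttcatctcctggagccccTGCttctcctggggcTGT
APOBEC3C (exon 3, chr22:39017787-39017891): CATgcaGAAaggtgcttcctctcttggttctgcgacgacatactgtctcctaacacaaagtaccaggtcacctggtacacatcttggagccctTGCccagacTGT
APOBEC3D (exon 6, chr22:39031715-39031819): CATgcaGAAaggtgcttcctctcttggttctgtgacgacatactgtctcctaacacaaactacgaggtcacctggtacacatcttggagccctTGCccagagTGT
APOBEC3F (exon 6, chr22:39052095-39052199): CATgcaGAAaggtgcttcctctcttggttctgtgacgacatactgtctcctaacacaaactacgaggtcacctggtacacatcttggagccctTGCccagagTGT
APOBEC3G (exon 6, chr22:39086312-39086416): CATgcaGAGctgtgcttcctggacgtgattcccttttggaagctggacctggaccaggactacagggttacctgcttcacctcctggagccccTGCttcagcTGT

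These stretches fell into groups by sequence. APOBEC3D and APOBEC3F were identical over all 105 bases, and APOBEC3C matched each of them at 101 of 105 (96.2%). The APOBEC3A stretch was identical to that of APOBEC3B over 111 bases, and both matched APOBEC3G at 86 of 111 aligned positions (77.5%). Over whole coding sequences APOBEC3D and APOBEC3F were 86.9% identical, with a longest shared run of 222 bases, and APOBEC3B and APOBEC3G were 74.5% identical. Of the 50-base windows of each principal transcript, 50.5% in APOBEC3B, 24.0% in APOBEC3F, 22.1% in APOBEC3A, 19.1% in APOBEC3G and 15.3% in APOBEC3D also occurred in another member. The shares were 1.16% in APOBEC3C and 0 in APOBEC3H. No source used here says how reads that match several members were shared out. The splits between APOBEC3A and APOBEC3B, between APOBEC3D and APOBEC3F, and between APOBEC3F and APOBEC3G are therefore uncertain. The same holds for APOBEC3B against APOBEC3D and against APOBEC3F. Of the APOBEC3B windows 10.4% occurred in APOBEC3D and 6.81% in APOBEC3F, and 6.21% of the APOBEC3D windows occurred in APOBEC3B. APOBEC3F and APOBEC3G shared 11.4% of the windows of APOBEC3F and 16.9% of those of APOBEC3G.

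Libraries held 15101734 to 40384407 estimated counts, and the 24 h libraries were on average the deepest (25270387 to 40384407), against 16799278 to 37420457 at 6 h and 15101734 to 19632741 in control. Markers of ductal epithelium were all measured (6 of 6 tested) and summed to 5455 to 5762 CPM at 6 h, 5352 to 5477 CPM at 24 h and 4834 to 4897 CPM in control. CPM are read counts scaled to library size with TMM factors. Of 13 leukocyte markers, which matter because blood cells express APOBEC3 genes strongly, 4 were at 0 in every library (PTPRC, CD3E, CD3D and MS4A1). In all, 7 of the 13 had no more than 3 counts in any library. The list summed to 372 to 389 CPM at 6 h, 405 to 426 CPM at 24 h and 258 to 270 CPM in control, and LYZ and CD68, a lysozyme and a lysosomal protein, made up most of it. HBB, a globin gene on that list, had 9.65 CPM in control library 1 and at most 0.815 CPM in any other library. The list's part in the results was not tested. The 8 fibroblast, endothelial and acinar markers summed to no more than 2.66 CPM in any library.

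RNA from 5 members was high enough to test. Per length, APOBEC3B and APOBEC3C were the most abundant in every group, APOBEC3F was intermediate, and APOBEC3D and APOBEC3G were scarce in control cells. APOBEC3A, a deaminase strongly induced by interferon in myeloid cells, had 2.77 estimated counts summed over the 6 h libraries, 0 over the 24 h libraries and 1.44 over the control libraries. APOBEC3H, a restriction factor with many alleles in people, had 0 in all 9 libraries. A count of 0 over a group allows a level of up to 0.0386 CPM at 6 h, 0.0300 CPM at 24 h and 0.0586 CPM in control (3 counts over the group, counting error only). APOBEC3H was therefore at or under that limit in every group, and APOBEC3A at 24 h. At 6 h and in control APOBEC3A had some counts, so the limit for a count of 0 does not apply to it there. No fold change is given for either gene. Of the wider deaminase family, APOBEC1 reached at most 12 counts in a library, APOBEC2 and APOBEC4 were at 0, and none of these 3 was tested.

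**Figure D1:**
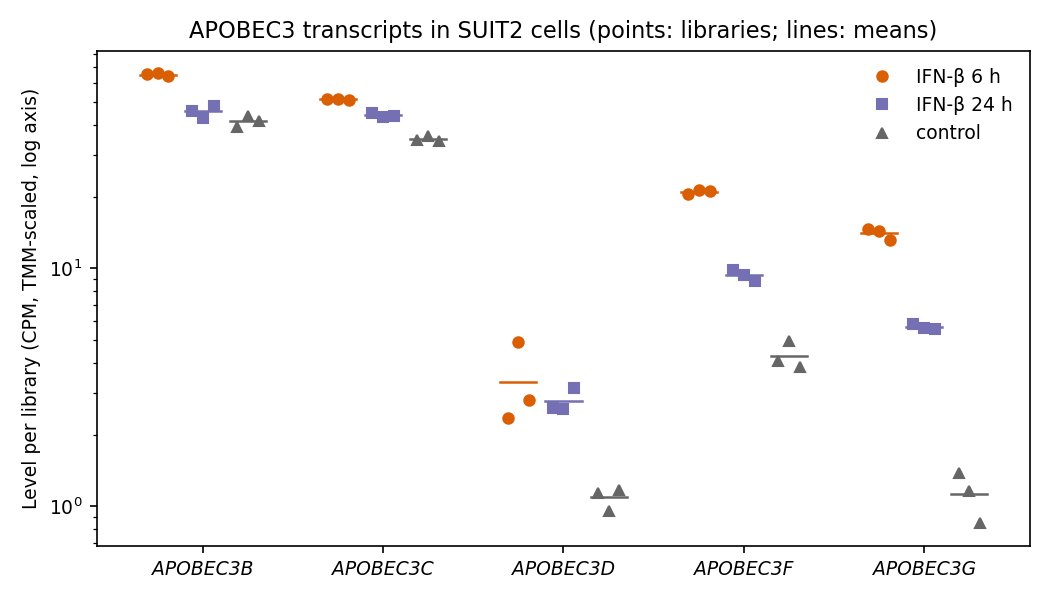
Level of each tested APOBEC3 gene in each library (CPM with TMM factors, log axis), by group: IFN-β 6 h, IFN-β 24 h and control. Points are libraries and lines are means; APOBEC3G shows the widest separation, with 13.1 to 14.6 CPM at 6 h, 5.57 to 5.81 CPM at 24 h and 0.848 to 1.38 CPM in control.

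The first comparison, 6 h of IFN-β against control, asks what had changed early. The control has no labelled time, so in each comparison with control IFN-β cannot be told apart from time in culture. All 5 tested members rose. Across all 16964 genes tested, 32.9% passed the threshold (adjusted p under 0.05), 17.5% upwards and 15.4% downwards. That split of 2968 higher and 2608 lower genes depends on scaling: it was 1669 and 6192 with library size only, and 1615 and 211 in the authors' deposited normalized table. The multipliers of that table did not fully even out library depth, which limits every value given from it. The median log2 fold change of the 5 members was 1.63, against -0.0053 over all genes tested. Their sizes differed widely, from less than 1.6-fold in APOBEC3B and APOBEC3C to over 12-fold in APOBEC3G. These calls stood in all 20 alternative settings tried for each of the 5 genes.

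APOBEC3G, the restrictor of Vif-deficient HIV, responded most. It had 14.6, 14.3 and 13.1 CPM in the 6 h libraries, 5.81, 5.59 and 5.57 CPM in the 24 h libraries, and 1.38, 1.16 and 0.848 CPM in the control libraries. The 3 groups did not overlap, and every 6 h library was above every 24 h library, which in turn was above every control library. At 6 h the log2 fold change was 3.61 ± 0.136 (SE), a 12.2-fold rise (edgeR quasi-likelihood test, Benjamini-Hochberg adjusted p = 5.80e-12). That put it at percentile 99.2 of the log2 fold changes of all genes tested. On log2 of the deposited normalized values it was 2.89 at pseudocount 1, which understates the change of low genes, and 3.69 at pseudocount 0.1.

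APOBEC3F, which acts beside APOBEC3G on retroviral DNA, had the next response. Its levels were 20.4, 21.4 and 21.1 CPM at 6 h, 9.81, 9.34 and 8.88 CPM at 24 h, and 4.08, 4.93 and 3.85 CPM in control. The groups again stood apart in the same order, with the 24 h libraries between the others. The 6 h log2 fold change was 2.28 ± 0.0917 (SE), or 4.85-fold (edgeR quasi-likelihood test, adjusted p = 1.38e-11).

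APOBEC3B, the nuclear deaminase, and APOBEC3C, a widely expressed member with weak activity on HIV, rose less from higher levels. APOBEC3B had 65.6, 66.1 and 64.1 CPM at 6 h, 46.1, 42.9 and 48.4 CPM at 24 h, and 39.4, 43.7 and 41.7 CPM in control. The 6 h libraries were clear of the rest, whereas the 24 h library with 42.9 CPM lay below the highest control library. APOBEC3C had 51.7, 51.6 and 50.9 CPM at 6 h, 44.9, 43.3 and 43.5 CPM at 24 h, and 34.7, 36.1 and 34.4 CPM in control. Here the 3 groups did not overlap. At 6 h APOBEC3B rose by 0.65 ± 0.0507 and APOBEC3C by 0.55 ± 0.0408 on the log2 scale (SE; edgeR quasi-likelihood test, adjusted p = 6.55e-08 and 3.30e-08). These are 1.56-fold and 1.46-fold, percentiles 93.1 and 92.0 among all genes tested.

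APOBEC3D, which also packages into HIV particles, was the least certain of the 5. It had 2.34, 4.90 and 2.79 CPM at 6 h, 2.58, 2.56 and 3.15 CPM at 24 h, and 1.14, 0.957 and 1.17 CPM in control. All treated libraries were above all control libraries, and 6 h library 2 was well above the other 6 h libraries. The log2 fold change at 6 h was 1.63 ± 0.276 (SE), or 3.09-fold (edgeR quasi-likelihood test, adjusted p = 0.000266), and it was 1.27 without 6 h library 2.

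**Figure D2:**
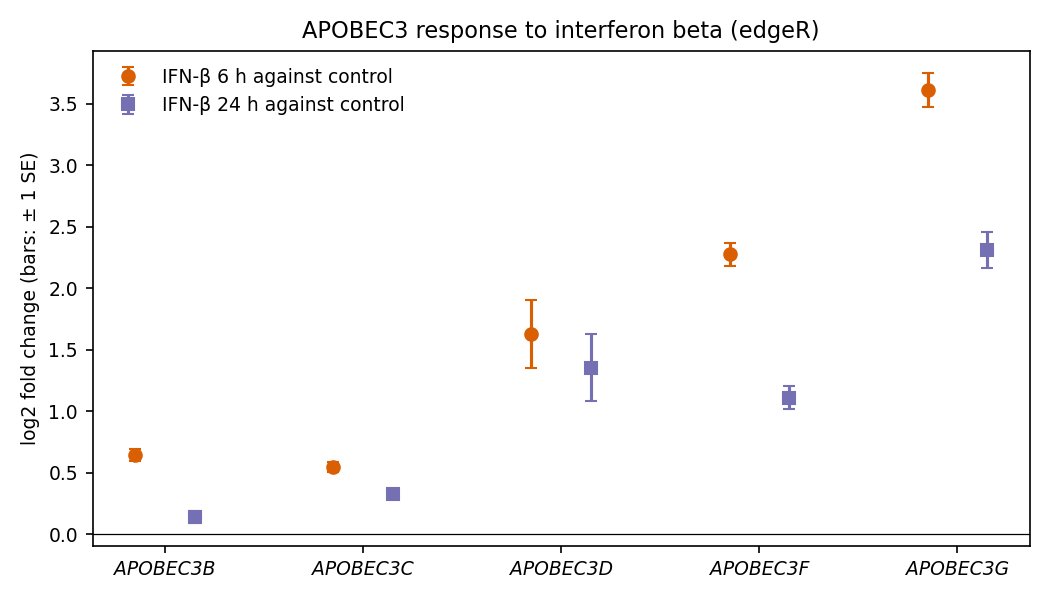
Log2 fold change of the 5 tested APOBEC3 genes at 6 h against control and at 24 h against control (vertical axis; bars are ± 1 SE of edgeR's estimate). At 6 h the values run between 0.55 for APOBEC3C and 3.61 for APOBEC3G; at 24 h they run between 0.14 for APOBEC3B and 2.31 for APOBEC3G.

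The second comparison, 24 h against control, uses the same control libraries as the first, so the responses at the 2 times are not independent of each other. All 5 members were again called higher, with a median log2 fold change of 1.11, against 0.0048 over all genes tested. At this time 50% of all genes tested passed, 24.7% upwards and 25.3% downwards (4191 and 4284 genes, against 8575 and 321 in the deposited normalized table, where the median of all genes was 0.371). APOBEC3G had the largest value of the 5, 2.31 ± 0.148 (SE; 4.97-fold; edgeR quasi-likelihood test, adjusted p = 3.97e-09). APOBEC3D followed with 1.35 ± 0.272 (2.55-fold; adjusted p = 0.0007) and APOBEC3F with 1.11 ± 0.0974 (2.16-fold; adjusted p = 1.49e-07). APOBEC3C was 0.32 ± 0.0399 higher on the log2 scale (1.25-fold; adjusted p = 6.20e-06).

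APOBEC3B at 24 h was close to its control level, with 45.8 ± 2.74 CPM at 24 h against 41.6 ± 2.16 CPM in control (SD, n = 3 each). The log2 fold change was 0.14 ± 0.0505 (SE), or 1.10-fold, with overlapping groups (edgeR quasi-likelihood test, adjusted p = 0.0317). The call was lost without control library 1 (0.10, adjusted p = 0.164), without control library 3 (0.14, adjusted p = 0.0675), without 24 h library 1 (0.14, adjusted p = 0.0747) and without 24 h library 3 (0.10, adjusted p = 0.138). It was also lost with DESeq2 (0.14, adjusted p = 0.0631). The rise of the other 4 members at 24 h passed in all 20 alternative settings.

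The third comparison, 24 h against 6 h, tests whether levels differed between the treated groups. No control is labelled with a time, so time with IFN-β cannot be told apart from time in culture. APOBEC3G fell by 1.30 ± 0.0926 (SE; adjusted p = 9.97e-09) and APOBEC3F fell by 1.17 ± 0.0721 (adjusted p = 1.83e-09) on the log2 scale, in edgeR's quasi-likelihood test. APOBEC3B fell by 0.51 ± 0.0461 (adjusted p = 1.76e-07). By the authors' normalized table it was at -0.24 and did not pass (adjusted p = 0.27). APOBEC3C fell by 0.22 ± 0.0364 (adjusted p = 7.88e-05), but it was at -0.008 with library size only (adjusted p = 0.928), and its sign turned to 0.04 (adjusted p = 0.869) by the deposited normalized table, where the median of all genes was 0.215 higher at 24 h. Relative to the median of all genes, APOBEC3C was lower by 0.21 with TMM and by 0.17 in that table. With these, 4 of the 5 members were called lower and none higher, against 3 lower with library size only and 2 lower in the deposited normalized table. Of all genes tested, 57.2% differed between the times, 26.6% upwards and 30.6% downwards (4520 and 5184 genes, against 8229 and 2475 with library size only), and the median was -0.0186 over all genes and -0.51 over the members.

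APOBEC3D did not pass between the times, at -0.28 ± 0.212 (SE; edgeR quasi-likelihood test, adjusted p = 0.283), which does not show that it stayed level. Its 6 h and 24 h libraries overlapped, and without 6 h library 2 the sign turned to 0.08.

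APOBEC3D shares its place with another gene of the table. AL022318.4, at 39014363 to 39033277 on the same strand, is annotated as a protein-coding gene. In GENCODE its first exon is 17 bases long (39014363 to 39014379) and ends with the first exon of APOBEC3C, and its other exons lie at those of APOBEC3D. All of the 50-base windows of its transcript (100%) occur in the APOBEC3D transcript, and 83.6% of the windows of APOBEC3D occur in it. AL022318.4 had 4.15, 3.28 and 4.01 CPM at 6 h, 2.49, 3.11 and 2.09 CPM at 24 h, and 0.480, 0.403 and 0 CPM in control after rounding to whole counts. Every treated library was above every control library. It rose by 3.61 ± 0.372 at 6 h and by 3.02 ± 0.384 at 24 h on the log2 scale (SE; edgeR quasi-likelihood test, adjusted p = 1.58e-06 and 8.77e-06). On log2 of the deposited normalized values (pseudocount 1) they were 1.91 and 1.68, and limma-voom gave 4.22 at 6 h.

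The split between the pair was uneven from library to library. AL022318.4 took 64.2%, 40.1% and 59.0% of the pair's estimated counts in the 6 h libraries, 49.2%, 55.1% and 40.01% in the 24 h libraries, and 28.9%, 30.7% and 1.33% in the control libraries. Summed, the pair had 7.16 ± 0.900 CPM at 6 h, 5.32 ± 0.310 CPM at 24 h and 1.38 ± 0.224 CPM in control (SD, n = 3 each). Counted together, a choice made after these values were seen, the pair rose by 2.36 at 6 h and by 1.93 at 24 h on the log2 scale (edgeR quasi-likelihood test, adjusted p = 9.82e-09 and 7.30e-08). The pair was then lower at 24 h than at 6 h, by -0.43 (adjusted p = 0.00548), where APOBEC3D alone had not passed.

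**Figure D3:**
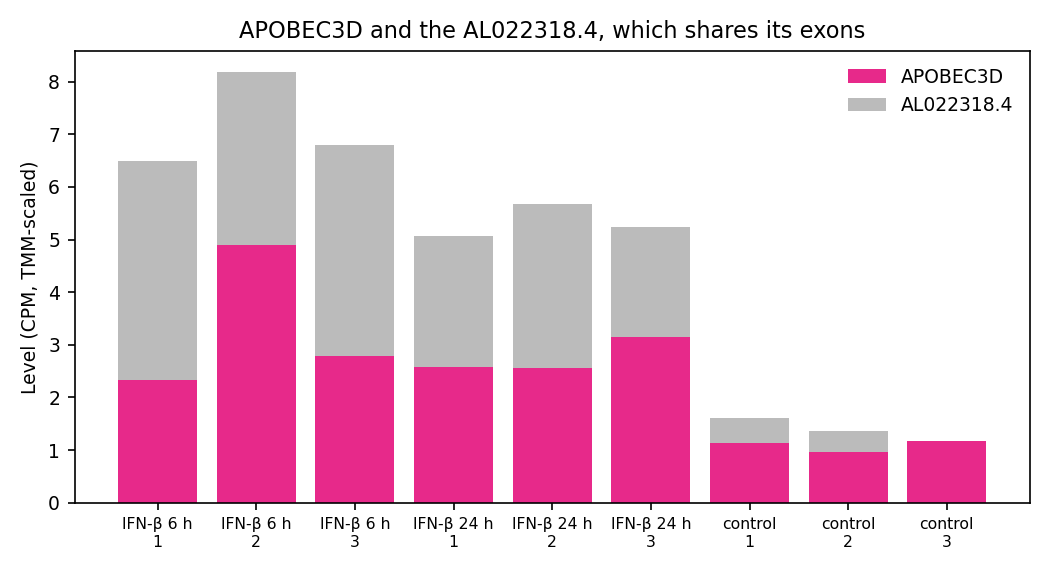
Levels of APOBEC3D (lower part of each bar) and of AL022318.4 (upper part), in CPM with TMM factors, for the 9 libraries. The summed bar is 6.49 to 8.18 CPM at 6 h, 5.07 to 5.67 CPM at 24 h and 1.17 to 1.62 CPM in control, while the split within it varies among libraries of the same group.

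Summed over the family, APOBEC3 RNA stood at 155.0 ± 3.17 CPM at 6 h, 107.4 ± 3.24 CPM at 24 h and 83.1 ± 3.26 CPM in control (SD, n = 3 each). The ratio of means to control was 1.86 at 6 h and 1.29 at 24 h. The make-up of this sum differed between groups, which is given without a test. APOBEC3B held a mean of 42.1% at 6 h and 42.6% at 24 h, and 48.8% to 50.9% in the control libraries, while APOBEC3C held 33.2%, 40.9% and 42.2% in the same groups. APOBEC3F held 13.5% at 6 h, 8.70% at 24 h and 5.14% in control. APOBEC3G held 9.04%, 5.27% and 1.36%, and APOBEC3D 2.15%, 2.57% and 1.32%. Thus APOBEC3F and APOBEC3G, the strongest responders at 6 h with APOBEC3D counted alone, together stayed below APOBEC3B in every group.

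**Figure D4:**
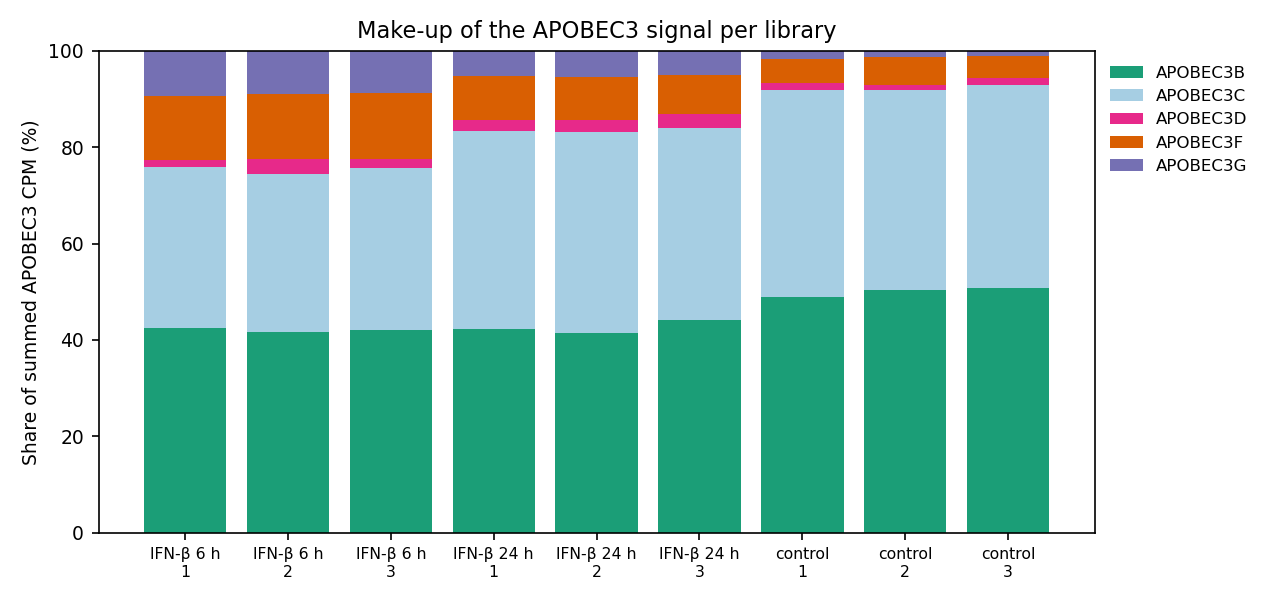
Share of the summed APOBEC3 CPM taken by each tested member (percent, stacked to 100), for each of the 9 libraries. APOBEC3F and APOBEC3G fill more of the 6 h bars (means of 13.5% and 9.04%) than of the 24 h bars (8.70% and 5.27%) or the control bars (5.14% and 1.36%).

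To set members side by side, levels were divided by the length of their merged exons. On this scale, CPM per kilobase, APOBEC3B had 34.4 ± 0.560 at 6 h, 24.1 ± 1.45 at 24 h and 21.9 ± 1.14 in control (SD, n = 3 each). APOBEC3C had 18.2 ± 0.153, 15.6 ± 0.309 and 12.4 ± 0.316, and APOBEC3F had 6.46 ± 0.143, 2.88 ± 0.143 and 1.32 ± 0.177, in the same groups. All 3 libraries of each of these genes were above all 3 of the next in each group. APOBEC3G came next at 6 h with 2.58 ± 0.144, above APOBEC3D with 1.32 ± 0.541. At 24 h APOBEC3D (1.09 ± 0.133) and APOBEC3G (1.04 ± 0.0246) overlapped, and in control APOBEC3D (0.431 ± 0.0461) was above APOBEC3G (0.208 ± 0.0491). These APOBEC3D values leave out AL022318.4. With it the pair had 7.16 CPM at 6 h and 5.32 CPM at 24 h, against 3.34 and 2.76 CPM for APOBEC3D alone. The lower orders therefore depend on how reads of that pair were split, and also on the length used. At 24 h APOBEC3G was above APOBEC3D without overlap with the longest transcript (log2 ratio of means 0.90) and with the principal one (1.497). In control APOBEC3D and APOBEC3G overlapped with either length, and APOBEC3F and APOBEC3G overlapped at 6 h with the principal transcript.

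By likeness of profile, the smallest distance between centred log2 CPM over the 9 libraries, the members did not all sit near each other. APOBEC3B and APOBEC3C were the closest members, at a distance of 0.383, while APOBEC3F and APOBEC3G were 1.80 apart. Outside the family the nearest gene to APOBEC3B was CCND3, a cyclin (distance 0.168), with 199 CPM at 6 h, 136 CPM at 24 h and 123 CPM in control. PSMA4, a proteasome subunit (0.177), and FYCO1 (0.184) followed. APOBEC3C was closest to PPA1, a pyrophosphatase (0.104), then LRP10 (0.118) and MTMR11 (0.124). APOBEC3F was closest to NCOA7 (0.416), whose log2 fold changes were 2.08 at 6 h and 0.96 at 24 h. APOBEC3G was closest to PIK3AP1, a signalling adaptor (0.584), with 3.49 at 6 h and 2.45 at 24 h, and to CYP2J2 (0.587). APOBEC3D had no gene nearer than SHISA5 (0.835). The libraries are shared by all these genes, so the distances are a description.

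Genes of the pathway that interferon uses changed at both times. Of 11 genes of the interferon signal, all tested, 8 rose, 1 fell and 2 missed the threshold at 6 h (median log2 fold change 2.99, against -0.0053 over all genes tested, of which 17.5% rose and 15.4% fell). At 24 h 7 rose, 1 fell and 3 did not pass (median 0.73, against 0.0048 over all genes, of which 24.7% rose and 25.3% fell). The one that fell at 24 h was JAK1, and the deposited normalized table called none of the 11 lower. USP18, which damps the receptor, rose by 6.26 ± 0.0471 at 6 h and 4.05 ± 0.0488 at 24 h, and IRF7, a transcription factor of the pathway, by 4.67 ± 0.0638 and 3.46 ± 0.0675 (SE). STAT2 rose by 3.96 ± 0.0604 at 6 h, and IRF9 by 2.40 ± 0.0663 at 24 h. Between the times 8 of the 11 were lower at 24 h, against 30.6% of all genes, among them IRF1 at -2.21 ± 0.0390. SOCS1, a feedback inhibitor, averaged 6.60 CPM at 6 h, 0.340 CPM at 24 h and 0.435 CPM in control, a rise at 6 h of 3.94 ± 0.233 (2.44 in the authors' normalized table at pseudocount 1).

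Other factors that restrict retroviruses made up a list of 12, all tested. At each time 10 rose, 1 fell and 1 did not pass, with medians of 2.53 at 6 h and 2.17 at 24 h. Of all genes tested 17.5% rose and 15.4% fell at 6 h, and 24.7% and 25.3% at 24 h. MX2, which blocks nuclear import of HIV, rose by 4.82 ± 0.0519 at 6 h, and SAMHD1, which breaks down deoxynucleotides, by 3.53 ± 0.0431 at 6 h (SE). SLFN5 rose by 3.50 ± 0.0545 at 6 h. Between the times the list split, with 6 higher and 6 lower at 24 h, where 26.6% of all genes were higher and 30.6% lower. IFITM1, a membrane protein that hinders virus entry, was higher at 24 h (536 CPM at 24 h against 273 CPM at 6 h), as were BST2 (312 against 170 CPM) and IFITM3 (897 against 548 CPM). APOBEC3F and APOBEC3G moved the other way between the times, as MX2 did (111 against 510 CPM).

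APOBEC3B has been studied as a target of non-canonical NF-kB, of repression by the DREAM complex with E2F, and of MYBL2. Of 9 NF-kB factors, 7 rose, 1 fell and 1 did not pass at 6 h (median 0.36), where 17.5% of all genes rose and 15.4% fell. At 24 h, where 24.7% of all genes rose and 25.3% fell, 1 rose, 7 fell and 1 did not pass (median -0.32). BIRC3, an inhibitor of apoptosis in that pathway, rose by 1.63 ± 0.0544 at 6 h and 0.73 ± 0.0558 at 24 h (SE). RELB rose by 0.38 ± 0.0661 at 6 h and fell by 0.63 ± 0.0686 at 24 h. NFKB2 fell by 0.66 ± 0.0421 and MAP3K14 by 0.55 ± 0.0484 at 24 h, and these falls depend on scaling. In the deposited normalized table, where the median of all genes was 0.371, 2 of the 9 were called higher and 0 lower at 24 h (median 0.12), and RELB, NFKB2 and MAP3K14 kept their sign without passing. Of 16 DREAM and E2F factors, 6 fell and 10 did not pass at 6 h (median -0.05). At 24 h 6 of them rose, 4 fell and 6 did not pass (median 0.10). Over all genes, 17.5% rose and 15.4% fell at 6 h (32.9% passed), and 24.7% rose and 25.3% fell at 24 h (50% passed). In the deposited normalized table the counts for these 16 were 1 lower and none higher at 6 h and 11 higher and 0 lower at 24 h. Over all 16964 genes that table had 1615 higher and 211 lower at 6 h, and 8575 higher and 321 lower at 24 h. With library size only 11 were lower at 6 h, where 6192 of all genes were lower. E2F2, an activator of S phase genes, fell by 0.82 ± 0.0968 at 6 h and rose by 0.99 ± 0.0791 at 24 h. MYBL2 had 266 CPM at 6 h, 259 CPM at 24 h and 274 CPM in control.

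The uracil that APOBEC3 enzymes make in DNA is removed by base excision repair. A wider list of 11 genes, linked to uracil and to DNA sites left without a base, was tested. At 6 h 1 rose, 1 fell and 9 did not pass (median -0.0009). At 24 h 5 rose, 2 fell and 4 did not pass (median 0.11). Over all genes 32.9% passed at 6 h and 50% at 24 h, so neither count is a result about the list. With library size only 7 of the 11 were called lower at 6 h and none higher, where 6192 of all 16964 genes were lower. At 24 h the deposited normalized table had 8 higher and 0 lower, where 8575 of all genes were higher and 321 lower. UNG, the main uracil glycosylase, had 35.0, 33.3 and 32.3 CPM at 6 h, 77.2, 77.2 and 79.6 CPM at 24 h, and 38.4, 43.5 and 38.5 CPM in control. The 24 h libraries were far above all others, and the 6 h libraries below all control libraries. UNG rose by 0.95 ± 0.0477 at 24 h (SE; edgeR quasi-likelihood test, adjusted p = 2.13e-10). XRCC1, a repair scaffold, rose by 0.25 ± 0.0433 at 24 h. LIG3, a DNA ligase, was at -0.29 ± 0.0461 and TDG, a thymine glycosylase, at -0.24 ± 0.0425 at 24 h, calls that turned sign to 0.14 and 0.19 in the deposited normalized table, without passing there.

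The genes around the family on chromosome 22 were called in both directions. Within 250000 bases of its outer ends the table held 29 further genes, of which 12 were tested. At 6 h 4 of these rose, 3 fell and 5 missed the threshold (median -0.15), where 32.9% of all genes passed. At 24 h, where 50% did, 4 rose, 4 fell and 4 missed it (median 0.09), against 5 higher and 0 lower in the deposited normalized table. One of the 12 is AL022318.4. CBX7, a Polycomb protein encoded just beyond APOBEC3H at 39120167 to 39152681 on the minus strand, had 3.31, 3.05 and 3.69 CPM at 6 h, 11.3, 11.4 and 12.4 CPM at 24 h, and 7.67, 7.05 and 6.72 CPM in control. It was thus lowest at 6 h and highest at 24 h, with no overlap between groups. Its log2 fold changes were -1.08 at 6 h and 0.71 at 24 h (edgeR quasi-likelihood test, adjusted p = 1.92e-06 and 1.23e-05). CBX6, another Polycomb gene, on the other side of the family at 38861422 to 38872250, fell by 0.53 at 6 h, and was at -0.36 without passing in the deposited normalized table. At 24 h CBX6 was at -0.16, a call that turned to 0.28 without passing in the deposited normalized table.

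Farther out, GTPBP1, a GTP-binding protein gene at 38705742 to 38738300, had 131, 123 and 125 CPM at 6 h, 67.4, 69.6 and 71.4 CPM at 24 h, and 52.1, 55.6 and 54.4 CPM in control. It was therefore high at 6 h and between the others at 24 h, with log2 fold changes of 1.22 and 0.36 (adjusted p = 1.07e-12 and 2.65e-06, edgeR quasi-likelihood test). The non-coding RNAs AL021707.6 and AL021707.3 near it had log2 fold changes of 2.54 and 1.90 at 6 h (0.91 and 0.74 in the authors' normalized table at pseudocount 1). Both lie within the span of SUN2, on the other strand, and without the strand setting reads of overlapping genes cannot be told apart. AL021707.3 (38734730 to 38738991) also overlaps the end of GTPBP1 on the same strand, where strand would not separate the reads. SUN2 fell by 0.40 at 6 h and by 0.59 at 24 h, without passing in the deposited normalized table. The antisense gene APOBEC3B-AS1, at 38991559 to 38998210 on the minus strand, had no more than 4 counts in any library.

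**Figure D5:**
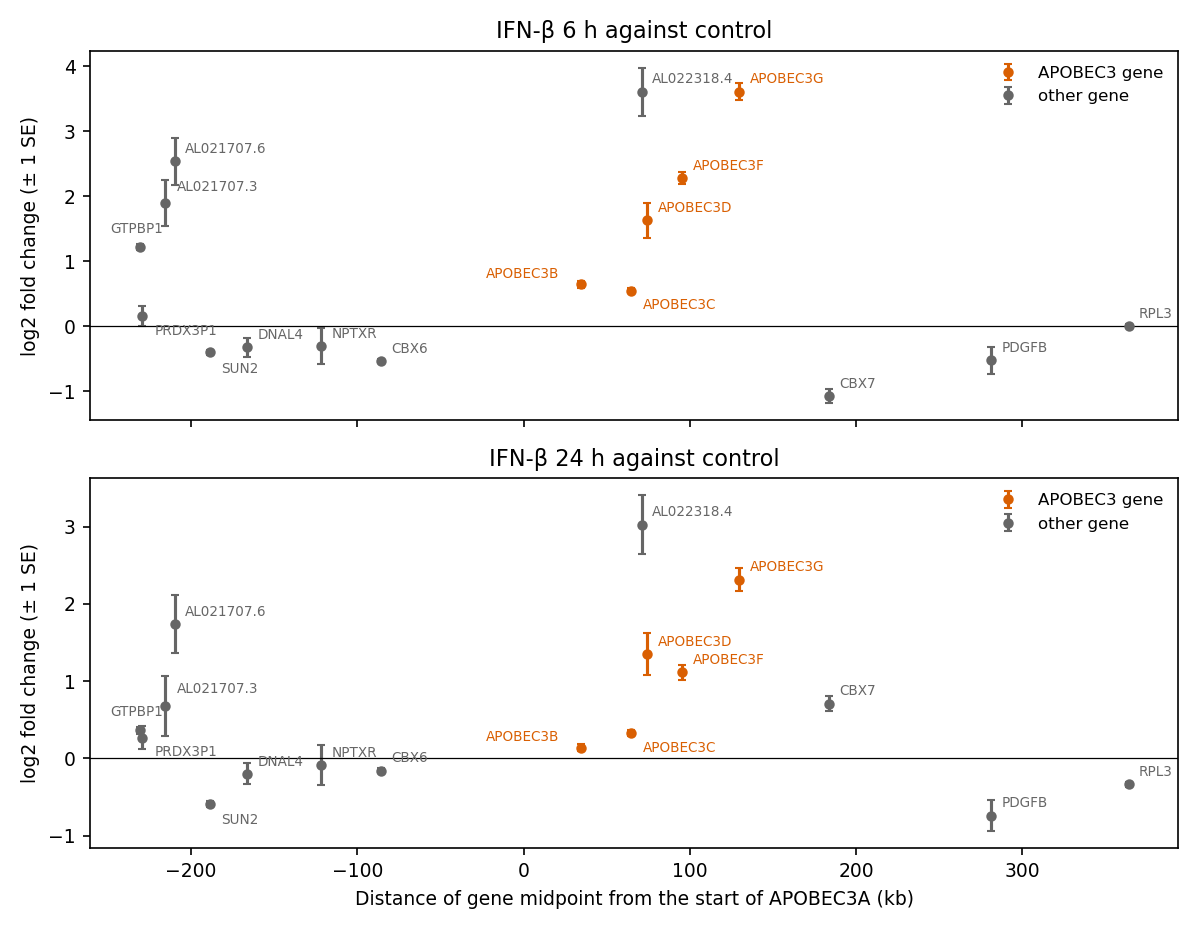
Log2 fold change (vertical axis, ± 1 SE) of tested genes within 250 kb of the APOBEC3 cluster against the distance of each gene's midpoint from the start of APOBEC3A (kb), at 6 h against control (top) and 24 h against control (bottom). The 5 APOBEC3 genes are above 0 in both panels, while the flanking genes lie on both sides, with CBX7 at -1.08 at 6 h and 0.71 at 24 h.

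A promoter sequence was held for 1 of the 7 members, APOBEC3H, in the RefSeq table used (GRCh38.p14, 300 bases around the start). Neither strand of it held the interferon-stimulated response element (GAAA, 2 bases of any kind, GAAA), found in 3.57% of all 35116 promoters of that table, or the STAT site TTCNNNGAA, found in 7.66%. It likewise held no E2F site TTTCNCGC (3.00% of promoters) and no cell cycle element TTTGAA (15.2%). This says only that those letters are not in that window.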

How the data were processed

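Total RNA of SUIT2 cells was extracted with a column kit and sequenced on an Illumina HiSeq 3000, per the labels' protocols. STAR 2.7.8a, Partek and hg38 were used, per the submitters' processing notes. No source used here gives the annotation release or how reads were counted and stranded. The authors deposited estimated counts per gene for 59609 genes, which need not be whole and were rounded first, where counts had been assumed when the tests were chosen. A second deposited table holds TMM-normalized signal by the authors, which as checked is each count plus 1e-04, times 1 multiplier per library. The multipliers follow depth only in part. The largest was 0.05386, for control library 3 (15101734 counts), and the smallest 0.02758, for 24 h library 1 (40384407 counts). Control library 2 and 6 h library 2 both had 0.04763, with 19632741 and 23447549 estimated counts. The multiplier was 0.03367 for 6 h library 3 (37420457 counts) and 0.03223 for 24 h library 3 (34288172 counts). That table therefore keeps part of the differences in depth between libraries, and its medians, counts of genes and lost calls carry them.

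The test was edgeR's quasi-likelihood test (edgeR 4.0.16 with limma 3.58.1 in R 4.3.3), in 1 model of 9 libraries with TMM factors and 6 residual degrees of freedom. After a low-count filter (minimum count 10, minimum total 15) 16964 genes were left, and the threshold was a Benjamini-Hochberg adjusted p of 0.05 over all of them. The biological coefficient of variation was 0.0392. Each treated group was set against control, and 24 h was set against 6 h. SE is the absolute log2 fold change over the root of the F statistic. Levels are CPM with TMM factors. The fit was tested on simulated data with known changes. Titles gave the groups and replicate numbers, and library pairs of a group all differed by more than sampling noise.

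The 7 members, the gene lists, the window of 250000 bases and the naming rule (all members, up to 4 called genes of largest change per list, tested neighbours, and the 3 most similar profiles per member) were chosen with earlier results of these data known. Not every gene that the rule takes is named, and some are not reported here. Coordinates are those of the deposited table on hg38, and those of the printed sequences and all transcript lengths come from GENCODE release 29 on GRCh38. Alternatives were DESeq2 1.42.0, limma-voom, other scaling and filters, fits of 2 groups alone, leaving out each library, a replicate block, and limma on log2 of the deposited signal with a pseudocount of 1 or 0.1. Another length and joint counting of APOBEC3D with AL022318.4 were added after seeing the data.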

Additional observations from a re-analysis of the deposited data

Results flagged for a closer look

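Without a control at each time, 24 h against 6 h cannot tell a changed response to IFN-β apart from time in culture. For these genes the levels differed between the times by that test (edgeR quasi-likelihood test, log2 scale). Among the APOBEC3 genes this was so for APOBEC3G (-1.30, adjusted p = 9.97e-09), APOBEC3F (-1.17, adjusted p = 1.83e-09), APOBEC3B (-0.506, adjusted p = 1.76e-07) and APOBEC3C (-0.225, adjusted p = 7.88e-05), all lower at 24 h. In the deposited normalized table APOBEC3B was at -0.24 without passing and APOBEC3C turned sign to 0.044, and with library size only APOBEC3C was at -0.008. AL022318.4, which shares the exons of APOBEC3D, was lower at 24 h by -0.587 (adjusted p = 0.0361), a call lost with library size only (adjusted p = 0.161), with DESeq2 (0.0722), in the deposited normalized table (0.264 and 0.435), and without 6 h library 1 (0.0822), 6 h library 3 (0.099), 24 h library 1 (0.0871) or 24 h library 3 (0.138).

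Among the flanking genes, CBX7 had the largest difference, 1.783 higher at 24 h (adjusted p = 5.50e-10), and CBX6 was 0.371 higher (adjusted p = 9.32e-08). GTPBP1 was lower at 24 h by -0.858 (adjusted p = 2.51e-11), AL021707.3 by -1.217 (adjusted p = 0.00186) and AL021707.6 by -0.801 (adjusted p = 0.0125). The call of AL021707.3 was lost in the deposited table at a pseudocount of 0.1 (adjusted p = 0.0526), where it was -0.44 at a pseudocount of 1. That of AL021707.6 was lost with library size only (adjusted p = 0.053), DESeq2 (0.104) and the deposited table (0.123 and 0.255), and without 6 h library 3 (0.0544) or 24 h library 2 (0.0534). RPL3 was lower by -0.341 (adjusted p = 5.07e-08) and SUN2 by -0.184 (adjusted p = 0.000848). In the deposited table RPL3 was at -0.068 without passing (adjusted p = 0.792). For SUN2 the sign turned in the deposited table and with library size only.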

How the results depend on the processing

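The rise of the 5 tested APOBEC3 genes at 6 h, and that of all but APOBEC3B at 24 h, kept its direction and call in each of the 20 settings tried. APOBEC3B at 24 h kept its direction, and its call was lost where the report says. The same replicate numbers in different groups share only a number: the correlation of deviations was -0.059 to 0.021 over 9 same-numbered pairs and -0.028 to 0.071 over the others. With these numbers as a replicate block APOBEC3B at 24 h was 0.14 (adjusted p = 0.0517), so 4 members were higher, and no other member's call changed. With each library left out the members called higher were 5 at 6 h and 4 to 5 at 24 h, and those lower between the times were 4. Genes called higher ranged over 2610 to 2953 at 6 h, 3705 to 4418 at 24 h and 4037 to 4505 between the times, and genes called lower over 2051 to 2536, 3792 to 4563 and 4810 to 5241.

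Counts over all genes moved by over 1.5 times with library size only and in the authors' normalized table, among the settings tried. The median of all genes was -0.145 at 6 h, 0.082 at 24 h and 0.198 between the times with library size only, and 0.134, 0.371 and 0.215 in the authors' normalized table (pseudocount 1). Scaling by library size gave 1669 genes higher and 6192 lower at 6 h, against 2968 and 2608 with TMM, and 8229 higher and 2475 lower between the times, against 4520 and 5184. In the deposited table, at a pseudocount of 1 and of 0.1, the counts were 1615 and 1621 higher and 211 and 233 lower at 6 h, 8575 and 8398 higher and 321 and 319 lower at 24 h (4191 and 4284 with TMM), and 975 and 941 lower between the times. There 2 members were lower between the times at either pseudocount. APOBEC3B was then -0.24 (adjusted p = 0.27 and 0.28), APOBEC3C turned to 0.044 and 0.045, and APOBEC3D to 0.028 and 0.061. APOBEC3C was -0.008 with library size only. With each library left out APOBEC3D ranged over -0.437 to 0.082 between the times, the highest without 6 h library 2. With library size only the family summed to 142.6 CPM at 6 h, 114.9 CPM at 24 h and 84.3 CPM in control.

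The log2 ratio of APOBEC3B to APOBEC3C per length was 0.916 at 6 h, 0.63 at 24 h and 0.818 in control. It was 0.956 at 6 h with the longest transcript, and 1.223, 0.937 and 1.124 with the principal transcript. Signs of other genes turned as follows. At 6 h DUT was -0.007 and RPL3 -0.136 with library size only, and with each library left out NPTXR ranged over -0.556 to 0.06 and RPL3 over -0.017 to 0.03 (-0.004 without control library 2). At 24 h in the deposited table LIG3 was 0.137 and 0.14, TDG 0.194 and 0.199, E2F5 0.022 and 0.023, DNAL4 0.186 and 0.225, NPTXR 0.223 and 0.369, CBX6 0.276 and 0.278, and RPL3 0.102 and 0.102. With each library left out NPTXR ranged over -0.338 to 0.28 at 24 h. Between the times PRDX3P1 ranged over -0.005 to 0.241 with each library left out, SUN2 was 0.033 with library size only and 0.08 and 0.081 in the deposited table, and PDGFB was 0.027 and 0.046 there. The cause was not tested. Of 1873 alternative values for named genes outside the family, 1795 kept direction and call, 45 lost the call, 7 gained it and 26 turned sign. Depth limits the low members: APOBEC3G had 13.3 to 23.2 and APOBEC3D 18.2 to 19.0 estimated counts in control libraries.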
